A study of Mus musculus with 14 samples.

Results

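The genes described here are components of the complement system, a cascade of plasma and tissue proteins that tags microbes and dying cells, recruits leukocytes and can perforate membranes. The classical pathway opens when C1q, a protein built from A, B and C chains, binds its target, and the alternative pathway amplifies the cascade through factor B. Both converge on C3 and then C5, whose fragments act on receptors on leukocytes, while soluble and membrane-bound inhibitors hold the cascade in check. Much plasma complement comes from the liver. Within tissues C1q is made largely by macrophages, and epithelial cells and fibroblasts make other components.

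The members were C3, Hc, Cfb, C1qa, C1qb, C1qc, C4b, C3ar1 and Serping1, and every probeset that the platform annotation assigned to 1 of them alone was taken. This gave 10 of 22690 probesets, for 7 of the 9 genes. For C3 no such probeset was found in the annotation used here, and C4b stood only on a probeset shared with another gene, so neither was analysed here. Of the 10 probesets 9 had a log2 level above 4 in at least 7 of the 14 arrays and were tested. The remaining probeset, a second one for the receptor gene C3ar1, lay between 2.15 and 3.68 on all arrays, where background sets the value.

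Total RNA from tumours of control mice and of HIF-2α deficient mice had been measured on Affymetrix arrays, 7 per group. Whether each array stands for its own mouse was not established here. HIF-2α, the product of Epas1, is a transcription factor that accumulates when oxygen is low. All mice shared a mixed 129 SvJ/C57Bl6 background. The second group is called both deficient and a knockdown in the labels, and is called deficient here. The organ, the way the tumours arose, the way HIF-2α was removed and the age of the mice are not given in the sources used here. Values are log2 probeset levels, so a difference of 1 is a doubling. Levels of different probesets cannot be set against each other, because probes differ in how strongly they bind.

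Several facts of the whole series touch the results below. The single Epas1 probeset differed by -0.19 between groups (SE 0.30, limma adjusted p = 0.807), and whether it lies in the part that was lost is not given. The number in each array's description has leading digits shared by several arrays, 2 such numbers among controls and 4 among deficient arrays, with no statement of what they mean. Deficient 1 and 5 share one, deficient 3 and 6 another, deficient 4 and 7 another, and deficient 2 has its own. The Y-linked gene Eif2s3y was high in control 1 and 4 (10.3 and 7.84), which share a number, and in deficient 4 and 7 (10.1 and 10.2). It read 2.16 to 2.17 in all other arrays. Deficient 3 and 6 were the lowest of the 14 arrays in the mean of endothelial markers, at 5.66 and 5.94 against 7.34 to 8.97 in the others, and in that of alveolar type II markers. P-values measure the spread between these arrays, and would be too small if arrays that share a number share an origin. Markers of hepatocytes, the main source of plasma complement, were mostly at background: 0 of the 8 matched genes passed the filter, and Ttr, Fgb, Ahsg and F2 lay under 4 on all arrays. Albumin (Alb) was under 4 in all controls and reached 7.78 in 1 of 3 deficient arrays above that level. Apoa1 was above 4 in 2 control arrays, up to 6.8, and in 3 deficient arrays, up to 8.5. Apoa2 and Cyp2e1 also rose above 4 in some arrays.

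Promoter sequences of 4 of the 7 measured genes, C1qb, C1qc, C3ar1 and Hc, were at hand from RefSeq (GRCm38.p6, 250 bases before to 50 after the start, on the gene's strand). The first 3 are shown because these genes are known from macrophages and C1qc varied with both of the others across arrays, as described below. Capitals mark AGGAAG or its complement, a core bound by the myeloid factor PU.1.
C1qb, chr4:136886151-136886450, minus strand: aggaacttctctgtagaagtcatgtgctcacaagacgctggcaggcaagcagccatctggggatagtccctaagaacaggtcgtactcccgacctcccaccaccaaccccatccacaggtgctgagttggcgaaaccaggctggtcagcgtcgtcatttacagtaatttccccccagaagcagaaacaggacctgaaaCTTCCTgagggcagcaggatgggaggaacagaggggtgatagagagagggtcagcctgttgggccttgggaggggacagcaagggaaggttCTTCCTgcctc
C1qc, chr4:136892865-136893164, minus strand: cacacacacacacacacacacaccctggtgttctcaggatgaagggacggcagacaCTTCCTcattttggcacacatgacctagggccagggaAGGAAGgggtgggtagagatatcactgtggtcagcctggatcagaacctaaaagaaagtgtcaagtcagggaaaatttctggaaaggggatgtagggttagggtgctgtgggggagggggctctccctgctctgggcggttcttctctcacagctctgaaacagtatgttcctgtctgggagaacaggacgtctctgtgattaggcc
C3ar1, chr6:122856108-122856407, minus strand: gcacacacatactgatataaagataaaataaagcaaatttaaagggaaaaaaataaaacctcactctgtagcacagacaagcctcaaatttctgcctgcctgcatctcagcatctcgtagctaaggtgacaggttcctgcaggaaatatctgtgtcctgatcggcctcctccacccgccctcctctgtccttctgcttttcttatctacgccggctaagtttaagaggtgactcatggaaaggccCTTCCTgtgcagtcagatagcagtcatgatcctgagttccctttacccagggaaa

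The AGGAAG core occurred on either strand in each of these 3 windows and not in that of Hc, against 35.4% of all 32841 promoter windows of this length. The cores of the HIF binding site, ACGTG and GCGTG, were in none of the 4 windows on either strand, and 43.8% of all windows held at least 1. The gamma-activated site TTCNNNGAA was in none of the 4 either, against 8.3% of all windows. A match or its lack describes the letters of these windows only. In the same gene table C1qb, C1qc and C1qa are direct neighbours, in that order.

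Between deficient and control tumours no member passed the threshold of an adjusted p under 0.05 in limma, which called 0.0394% of the 12701 tested probesets, 0.0157% as higher and 0.0236% as lower. At an unadjusted p under 0.05 it took 0 of the 9 tested member probesets, against 14.7% of all. Leaving out 1 array at a time, it took 3 when deficient 1 was dropped, 2 when deficient 5 was, and 1 when deficient 7 or control 4 was. The share of all tested probesets at that threshold was not taken in these fits, so the counts cannot be set against it. At an adjusted p under 0.05 the fits without deficient 1, deficient 5, deficient 7 and control 4 called 11, 5, 13 and 85 probesets in all, against 5 with all arrays. The exact permutation test of single genes gave 1 member under 0.05, Hc, and 14.7% of all tested probesets. The 9 differences nonetheless lay mostly on the same side. All 8 tested probesets other than that of C3ar1 were lower in deficient tumours, where 47.4% of all tested probesets were lower, and 3 of these 8 measure C1qb alone. By gene, 6 of 7 were lower and the median difference was -0.54, against 0.02 over all tested probesets. For none of the 9 did the groups separate without overlap, as 0.496% of all tested probesets did.

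**Figure D1:**
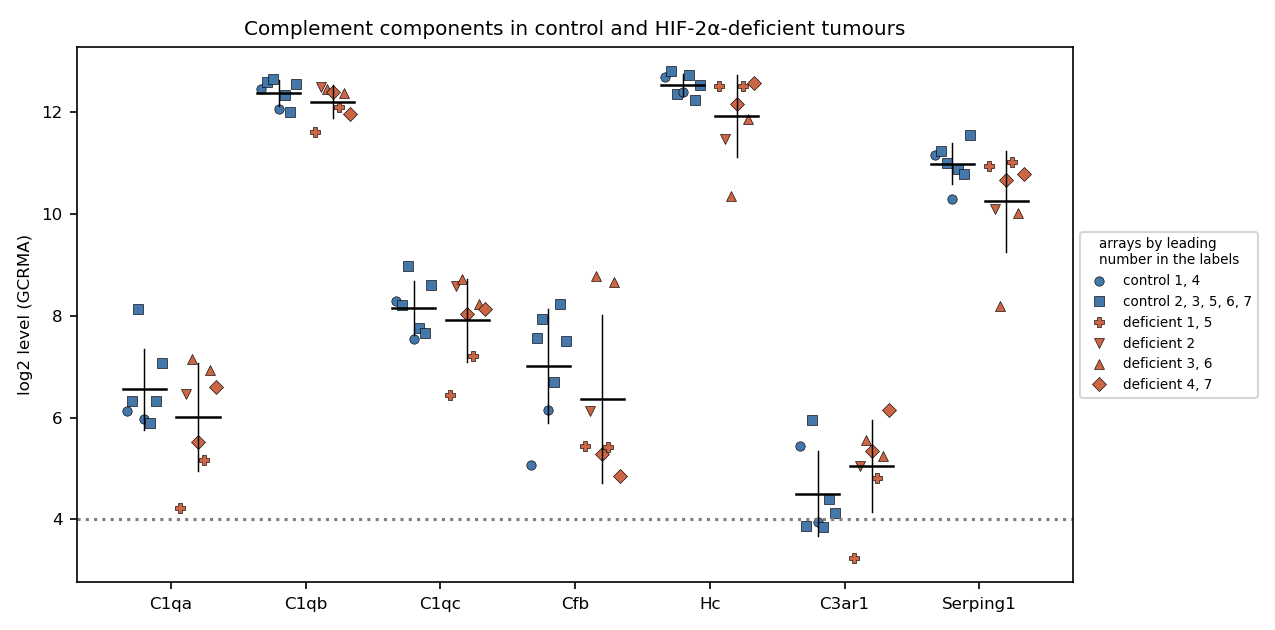
Log2 level (y axis) of the brightest probeset of each of the 7 measured complement genes (x axis) in 7 control (blue) and 7 deficient (orange) arrays. Points are arrays, their shape marks arrays that share a leading number in the labels, horizontal bars are means, vertical bars are 1 SD, and the dotted line is the level of 4 used by the filter; the groups overlap for every gene, and deficient 3 and 6 are highest for Cfb while deficient 3 is lowest for Hc and Serping1.

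The A, B and C chains of C1q were each lower on average in deficient tumours, by less than the spread between arrays. C1qa ran from 5.90 through a median of 6.32 to 8.14 in controls and from 4.23 through 6.47 to 7.14 in deficient tumours. The deficient median thus lay above the control median while the mean lay below. Deficient 1, 5 and 4, at 4.23, 5.17 and 5.52, lay below every control, and control 3, at 8.14, lay above every deficient array. Means were 6.55 ± 0.80 (SD, n = 7) and 6.01 ± 1.06 (n = 7), a difference of -0.54 (SE 0.46, 95% interval -1.53 to 0.44, limma adjusted p = 0.628). The difference was -0.25 without deficient 1, -0.28 without control 3 and -0.02 without deficient 1 and 5. In bulk RNA fewer cells of a type and less RNA per cell cannot be told apart.

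C1qc ran from 7.54 through 8.22 to 8.98 in controls and from 6.44 through 8.13 to 8.73 in deficient tumours. The ranges overlapped, with deficient 1 and 5, at 6.44 and 7.20, below every control and control 3, at 8.98, above every deficient array. The difference was -0.24 (SE 0.34, 95% interval -0.97 to 0.48, limma adjusted p = 0.777), and without deficient 1 it was 0.00.

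C1qb had 3 probesets. The brightest read 12.0 to 12.7 in controls, with a median of 12.46, and 11.6 to 12.5 in deficient tumours, with a median of 12.37. Its difference was -0.18 (SE 0.16, 95% interval -0.51 to 0.16, limma adjusted p = 0.639). The other probesets differed by -0.23 (SE 0.16) and -0.46 (SE 0.37). The 3 followed each other closely over arrays, with r between 0.930 and 0.984 after each group's mean was removed. Deficient 1 was the lowest deficient array on all 3, and without it the differences were -0.08, -0.13 and -0.16.

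Macrophage markers, which mark the main tissue source of C1q, also lay lower. Of 20 tested markers 16 were lower, 7 of them at an unadjusted p under 0.05 and 0 after adjustment (limma), with a median of -0.42. Of all tested probesets 47.4% were lower, and 6.57% were lower at an unadjusted p under 0.05. Their summed log2 level was 169 to 194 over control arrays, against 165 to 183 over deficient arrays, and Cd163 and Cx3cr1 were under 4 on all arrays. The Fc receptor gene Fcgr3 differed by -0.75 (SE 0.26), the leukocyte lysosomal gene Laptm5 by -0.56 (SE 0.20) and the bright chitinase-like gene Chil3 by -0.26 (SE 0.25). Their part in the C1q values was not tested.

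Over the 14 arrays, with each group's mean removed, the mean of the macrophage markers correlated with C1qa at r = -0.11 (Spearman's rho -0.20), with C1qb at r = -0.003 (rho -0.02) and with C1qc at r = -0.16 (rho -0.19). Permutation p-values were 0.716, 0.992 and 0.583 for r and 0.492, 0.951 and 0.522 for rho (adjusted p for r of 0.802, 0.992 and 0.681 over 56 pairs of 7 genes and 8 lists). Without the 2 arrays farthest from the gene's median r was -0.23, 0.23 and 0.14. Within controls r was 0.55, 0.66 and 0.59, and within deficient arrays -0.75, -0.69 and -0.82 (exact permutation p of 0.213, 0.107 and 0.164 in controls, and of 0.0524, 0.0726 and 0.0341 in deficient arrays, where the lowest adjusted p was 0.101). The groups thus had opposite signs, and the difference between them was not tested. Deficient 1 and 5, the arrays with the least C1qa and C1qc, had macrophage marker means of 9.14 and 9.06, the highest of the deficient group.

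Cfb encodes factor B, the protease of the alternative pathway. It ran from 5.06 through 7.50 to 8.23 in controls and from 4.86 through 5.44 to 8.77 in deficient tumours. Deficient tumours fell into high and low values: deficient 3 and 6 read 8.77 and 8.66, above every control, and the other 5 read 4.86 to 6.13. Within leading numbers, deficient 1 and 5 differed by 0.01, deficient 3 and 6 by 0.11 and deficient 4 and 7 by 0.43, while the averages of the 4 numbers spanned 3.64. In controls the arrays of a leading number were less alike, spanning 1.09 over 2 arrays and 1.53 over 5. The close match in deficient tumours was not general to the members, since deficient 3 and 6 differed by 1.84 for Serping1, and deficient 1 and 5 by 1.58 for C3ar1. The means were 7.02 ± 1.12 and 6.37 ± 1.65 (SD, n = 7 each), a difference of -0.65 (SE 0.69, 95% interval -2.12 to 0.81, limma adjusted p = 0.695). Without deficient 3 and 6 it was -1.59 (adjusted p = 0.181), and with leading numbers fitted as random blocks -0.41 (adjusted p = 0.990).

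Hc encodes complement C5, from which the attractant C5a and the first protein of the membrane attack complex are cut. In controls it lay in a narrow band, from 12.23 through 12.52 to 12.80, and in deficient tumours it ran from 10.35 through 12.15 to 12.57. Of the deficient arrays 4 lay below every control, deficient 3 at 10.35, deficient 2 at 11.47, deficient 6 at 11.86 and deficient 4 at 12.15, and the other 3 lay inside the control range. The means were 12.53 ± 0.21 and 11.92 ± 0.80 (SD, n = 7 each), a difference of -0.61 (SE 0.29, 1.53-fold lower, 95% interval -1.24 to 0.01). This did not pass in limma (adjusted p = 0.347), while the two-sided exact permutation p, not adjusted, was 0.0431. Over averages of arrays that share a leading number the exact permutation p was 0.133, for a difference of -0.67. Without deficient 3 the difference was -0.35, and without deficient 3 and 6 it was -0.29.

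The SD of Hc was 3.74 times as large in deficient as in control arrays. That ratio exceeded those of 96.7% of tested probesets, whose median ratio was 1.31 and of which 69.4% had a ratio above 1. All 9 tested member probesets had a ratio above 1, with Serping1 next at 2.46 and C3ar1 lowest at 1.08. Deficient 3 carried much of this for both genes: without it the ratio was 2.07 for Hc and 1.06 for Serping1.

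Serping1 encodes the C1 inhibitor, a serpin that blocks the proteases C1r and C1s. It ran from 10.28 through 10.99 to 11.55 in controls and from 8.18 through 10.67 to 11.01 in deficient tumours. Deficient 2, 3 and 6, at 10.09, 8.18 and 10.03, lay below every control and the other 4 within the control range. The means were 10.98 ± 0.40 and 10.24 ± 0.99 (SD, n = 7 each), a difference of -0.74 (SE 0.37, 95% interval -1.54 to 0.05, limma adjusted p = 0.374). Without deficient 3 it was -0.40 and without deficient 3 and 6 -0.29.

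C3ar1 encodes the receptor for the C3a fragment, found on myeloid cells, and was the member that lay higher in deficient tumours. Its tested probeset ran from 3.86 through 4.12 to 5.94 in controls and from 3.24 through 5.24 to 6.15 in deficient tumours. It was above 4 in 4 of 7 control and 6 of 7 deficient arrays, so several values lay at or near background. The means were 4.51 ± 0.84 and 5.05 ± 0.90 (SD, n = 7 each), a difference of 0.54 (SE 0.43, 95% interval -0.37 to 1.46, limma adjusted p = 0.595). Deficient 1 was the lowest array of both groups, and without it the difference was 0.85.

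The other genes of the system were taken from lists of 49 complement genes by role, of which 38 had a probeset of their own and 19 were tested, the 7 members among them. Of the 19, 18 were lower in deficient tumours and 0 passed after adjustment (limma). At an unadjusted p under 0.05 there were 2 lower and 0 higher, against 6.57% lower and 8.09% higher of all tested probesets. Their median difference was -0.45, and -0.29 without deficient 3 and 6. The 19 untested genes were at or near background in most arrays. They included the terminal components C8a, C8b, C8g and C9 and the receptors C5ar1, Cr2, Itgam and Vsig4. Also untested, C2 was above 4 in 3 of 7 control and 0 of 7 deficient arrays. Cfi was above 4 in 2 of 7 control and 3 of 7 deficient arrays, with 7.24 in control 3 and 9.62 in deficient 3.

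**Figure D2:**
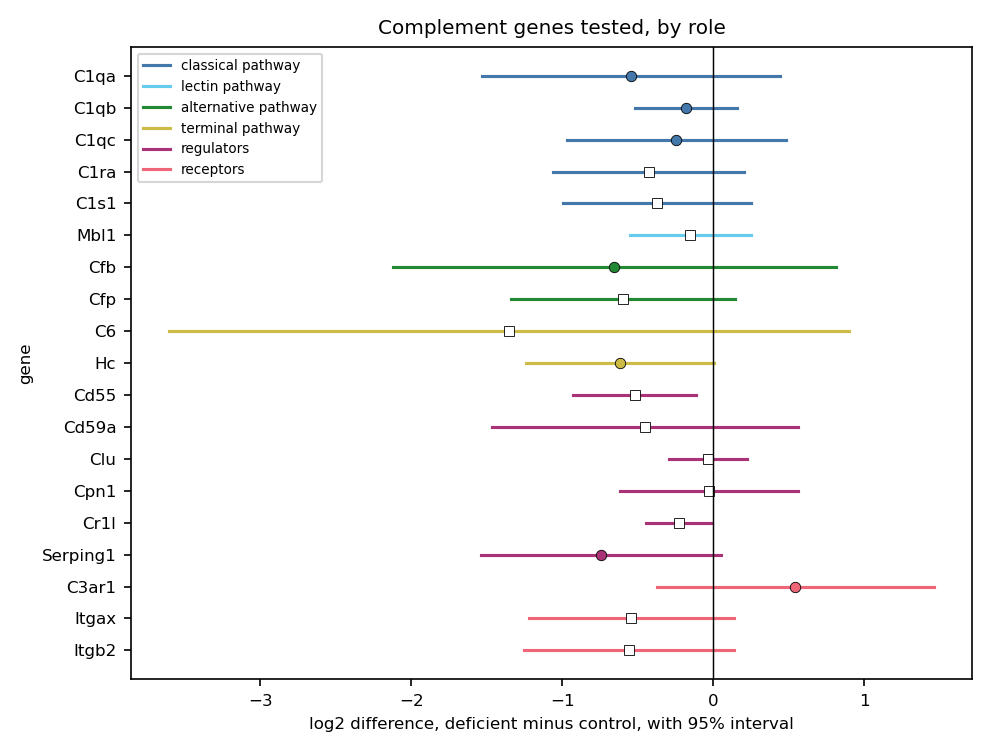
Log2 difference, deficient minus control (x axis), with its 95% interval for the 19 tested complement genes (y axis), coloured by role. Filled circles are the members and open squares the other genes; 18 of 19 points lie left of 0, and the intervals of Cd55 and Cr1l alone lie wholly below it, with no gene past the threshold after adjustment.

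The membrane regulators held the genes with the smallest p-values. Cd55, decay-accelerating factor, averaged 9.25 ± 0.43 in control and 8.73 ± 0.30 in deficient tumours (SD, n = 7 each), a difference of -0.52 (SE 0.19, limma adjusted p = 0.240). Cr1l, the rodent regulator Crry, read 9.96 ± 0.08 and 9.73 ± 0.21, a difference of -0.23 (SE 0.10, adjusted p = 0.328). Clusterin (Clu), the brightest regulator, differed by -0.03 (SE 0.12). The C1 proteases C1ra and C1s1 differed by -0.43 (SE 0.30) and -0.37 (SE 0.29), and the lectin Mbl1 by -0.15 (SE 0.19). Properdin (Cfp), which stabilises the alternative convertase, differed by -0.60 (SE 0.35). Itgb2 and Itgax, chains of complement receptor integrins, differed by -0.56 (SE 0.33) and -0.54 (SE 0.32). All 6 tested regulators and all 5 tested genes of the classical pathway were lower.

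C6, the next protein of the membrane attack complex after C5, was bright in 12 arrays but not in deficient 3 and 6. In controls it lay between 8.28 and 10.22. In deficient tumours it read 2.27 in deficient 3, at background, 6.44 in deficient 6 and 9.40 to 10.38 in the other 5, whose range overlapped that of controls. The mean difference was -1.35 (SE 1.05, limma adjusted p = 0.591), while the medians were 9.83 in control and 9.78 in deficient tumours.

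Across arrays some of the members varied together in sets. Each gene's level was centred on its group's mean, and Pearson's r was taken over the 14 arrays for the 21 pairs of members, with p-values by permutation adjusted over the pairs. Of these, 9 passed an adjusted p under 0.05, 7 of them positive. The share among pairs of all tested genes was not computed, so these counts do not set the members apart. Genes outside the list reached similar values, such as Il34 with C1qa (0.91) and Oat with Hc (0.96), picked as the highest. The chains of C1q went together: r was 0.90 for C1qa and C1qc (rho 0.89, adjusted permutation p = 0.00084 for r and 0.00168 for rho) and 0.87 for C1qb and C1qc (rho 0.81, adjusted permutation p = 0.00098 and 0.00581). For C1qa and C1qb r was 0.67 (rho 0.58, adjusted permutation p = 0.027 and 0.0737). Without the 2 arrays farthest from the median of the first gene these were 0.83, 0.77 and 0.42. The last, between C1qa and C1qb without control 3 and deficient 1, did not pass. Within controls they were 0.86, 0.89 and 0.60, and within deficient arrays 0.93, 0.87 and 0.71.

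C3ar1 went with 2 of the 3 C1q chains, at r = 0.74 with C1qc (rho 0.69, adjusted permutation p = 0.0114 and 0.0309) and 0.74 with C1qa (rho 0.70, adjusted permutation p = 0.0114 and 0.0309). Without the 2 farthest arrays these were 0.57 and 0.41 and did not pass, so they rest in part on those arrays, which include deficient 1 in both cases. Within controls r was 0.66 and 0.65, and within deficient arrays 0.81 and 0.81. With C1qb, C3ar1 had r = 0.51 (rho 0.41, adjusted permutation p = 0.115 and 0.204), and 0.19 without the 2 farthest arrays. The difference between groups in the mean had opposite signs for C3ar1 and C1q, while their deviations within the groups had the same sign.

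Hc and Serping1 formed the other set, with r = 0.91 (rho 0.81, adjusted permutation p = 0.00098 and 0.00581). Without the 2 farthest arrays r was 0.73 and without deficient 3 and 6 it was 0.75. Within deficient arrays it was 0.98 and within controls 0.43, where it did not pass (exact permutation adjusted p = 0.601). Cfb ran against this set, at r = -0.69 with Hc (rho -0.68, adjusted permutation p = 0.0146 and 0.0309) and -0.59 with Serping1 (rho -0.60, adjusted permutation p = 0.0498 and 0.0737). Without the 2 farthest arrays, deficient 3 and 7 for Hc and deficient 3 and 6 for Serping1, these were -0.46 and -0.26 and did not pass. Within controls they were -0.45 and 0.18, and within deficient arrays -0.78 and -0.83. The remaining call, Cfb and C1qa at r = 0.61 (rho 0.59, adjusted permutation p = 0.0498 and 0.0737), was 0.43 without deficient 3 and 6 and then did not pass. Averaged over the 6 leading numbers, the C1q pairs had r of 0.93 to 0.97 and Hc with Serping1 0.94, each with an exact permutation adjusted p of 0.051.

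**Figure D3:**
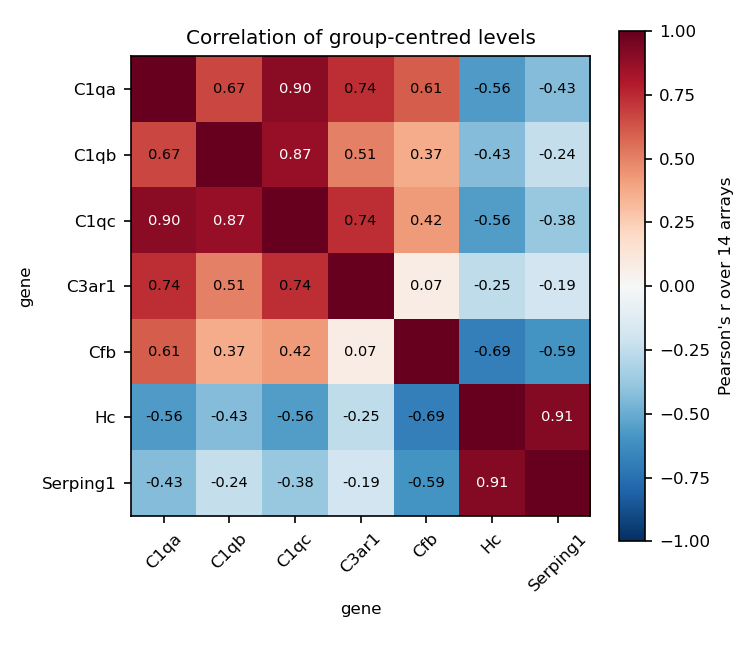
Pearson's r over 14 arrays between the group-centred log2 levels of the 7 measured complement genes, red for positive and blue for negative. The C1q chains and C3ar1 form a positive block, weakest at 0.51 for C1qb and C3ar1, Hc and Serping1 reach 0.91, and Cfb and Hc stand at -0.69.

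Hc, Serping1 and Cfb were also set against the marker lists, and their relations were not split by cell type. The mean of the alveolar type II markers, genes of the surfactant-making epithelium, correlated with Hc at r = 0.94 (rho 0.89, adjusted permutation p = 0.00056 for both), at 0.82 without the 2 farthest arrays, 0.83 within controls and 0.95 within deficient arrays. Much of the spread of this mean came from Chia1, an acidic chitinase gene, which ran from 6.33 to 13.28 over deficient arrays, and from the transcription factor gene Etv5, with an SD of 1.07 there. As a description, since these genes were picked for their spread, r for Hc was 0.87 without Chia1, 0.78 without both, and 0.68 with the surfactant protein genes Sftpc, Sftpa1, Sftpb and Sftpd alone. For Cfb the same values were -0.80, -0.73 and -0.28, and for Serping1 0.78, 0.70 and 0.85. Serping1 correlated with the fibroblast and matrix markers at r = 0.94 (rho 0.93, adjusted permutation p = 0.00056 for both), at 0.91 without the 2 farthest arrays, 0.85 within controls and 0.95 within deficient arrays. Cfb correlated with the alveolar type II markers at r = -0.83 (rho -0.84, adjusted permutation p = 0.00182 and 0.00504), at -0.71 without the 2 farthest arrays (adjusted permutation p = 0.0755), -0.63 within controls and -0.92 within deficient arrays. Within controls no pair of member and list passed in the exact permutation test, where the lowest adjusted p was 0.333. Deficient 3 had the lowest mean of the 14 arrays for both the alveolar and the fibroblast list. Serping1 also reached r = 0.91 with the alveolar list (rho 0.87, adjusted permutation p = 0.00112 and 0.00224), with the endothelial list 0.81 (rho 0.82, 0.00213 and 0.00762) and with the macrophage list 0.68 (rho 0.64, 0.0371 and 0.0812). Within controls these were 0.49, 0.61 and 0.59, and within deficient arrays 0.97, 0.84 and 0.89. Without the 2 farthest arrays they were 0.86, 0.74 and 0.33, and the last did not pass. Hc reached 0.83 with the fibroblast list (rho 0.67, adjusted permutation p = 0.00569 and 0.0604) and 0.73 with the endothelial list (rho 0.61, 0.0179 and 0.0944). Both came from the deficient arrays, where r was 0.94 and 0.80, against 0.05 and -0.005 within controls. Neither passed without the 2 farthest arrays (adjusted permutation p = 0.0755 and 0.173). Over the 6 leading-number averages Hc with the alveolar list and Serping1 with the endothelial list passed (exact permutation adjusted p = 0.0259 each). So did C1qa with the acute phase list described below (r = 0.98, exact permutation adjusted p = 0.0259). Serping1 with the fibroblast and alveolar lists (0.0889 each) and Cfb with the alveolar list (0.124) did not. Of the 56 pairs of member and list, 13 passed with all arrays and 4 without deficient 3 and 6. The share that all tested genes would give with these lists was not computed. The pairs not yet named were negative. With the ciliated list r was -0.74 for C1qc, -0.71 for C1qa and -0.72 for C3ar1 (adjusted permutation p = 0.0179, 0.0247 and 0.0184). C1qa had -0.68 with the endothelial list and C3ar1 -0.72 with the club list (0.0344 and 0.0184). These did not pass without the 2 farthest arrays or without deficient 3 and 6.

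Between groups these lists differed as follows. The 15 tested alveolar type II markers had a median difference of 0.03, 10 higher and 5 lower, with a summed log2 level of 183 to 188 in controls and 175 to 189 in deficient tumours. Egfl6 differed by 0.45 (SE 0.21), the chemokine gene Cxcl15 by 0.21 (SE 0.10) and the surfactant gene Sftpa1 by -0.04 (SE 0.10). Of the 15 tested fibroblast and matrix markers 14 were lower, where 47.4% of all tested probesets were lower. Their median was -0.50, with a summed level of 138 to 152 in controls and 113 to 145 in deficient tumours, and Lum was under 4 on all arrays. Mmp2, a gelatinase, differed by -1.45 (SE 0.46), the collagen VI gene Col6a1 by -1.07 (SE 0.36) and Inmt, the brightest, by -1.44 (SE 0.67). The part of these cells in the values of Hc and Serping1 was not tested.

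**Figure D4:**
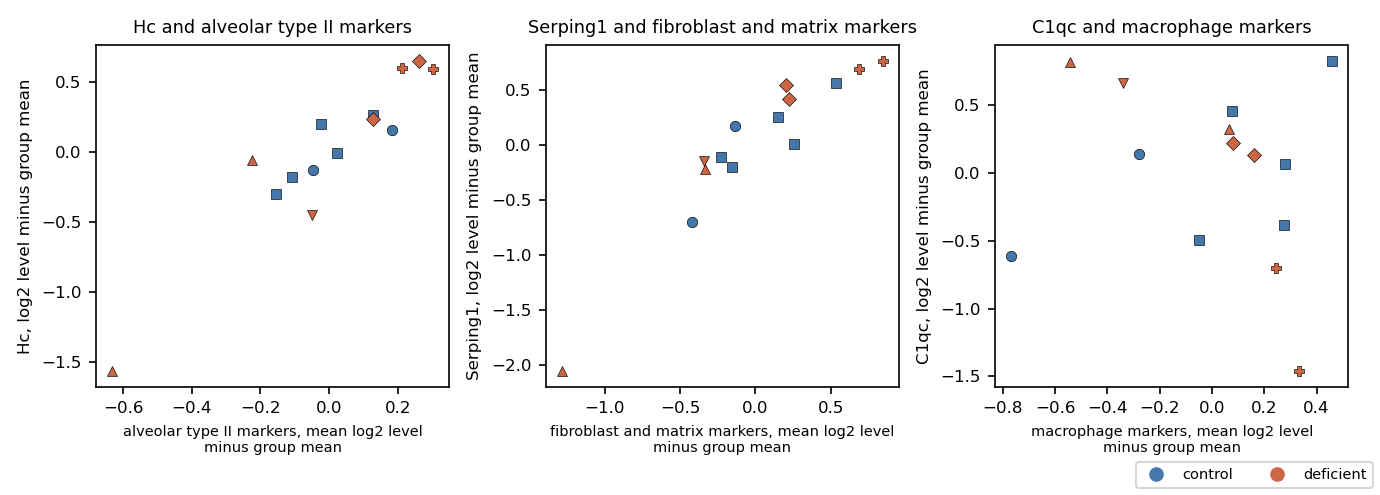
Group-centred log2 level of Hc, Serping1 and C1qc (y axes) against the group-centred mean log2 level of alveolar type II, fibroblast and matrix, and macrophage markers (x axes) in 7 control (blue) and 7 deficient (orange) arrays, with shapes for arrays that share a leading number. Hc and Serping1 rise with the markers shown (r = 0.94 each), with deficient 3 at the lower left, and C1qc shows no common trend (r = -0.16).

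Genes induced by interferon gamma and by the acute phase response, programmes known to raise factor B and C1 inhibitor, were examined beside them. The 11 tested interferon genes had a median difference of -0.08, 4 higher and 7 lower, with Iigp1 at 0.66 (SE 0.30), Gbp2 at 0.31 (SE 0.33) and B2m at -0.03 (SE 0.14). The 11 acute phase genes had a median of -0.44, 4 higher and 7 lower, with haptoglobin (Hp) at -0.66 (SE 0.14), the transcription factor gene Cebpb at -0.85 (SE 0.20) and lipocalin 2 (Lcn2) at 0.05 (SE 0.15). With all arrays neither Cfb nor Serping1 passed with either list. Cfb had r = 0.58 with the acute phase list and -0.46 with the interferon list (adjusted permutation p = 0.0813 and 0.184). Serping1 had -0.16 and 0.62 in that order (0.679 and 0.0543). Without its 2 farthest arrays Serping1 had r = -0.73 with the acute phase list (adjusted permutation p = 0.0443), and within controls 0.56. C1qa, C1qb and C1qc had 0.55, 0.59 and 0.57 with that list over all arrays and did not pass. Without the 2 farthest arrays of each gene they had 0.49, 0.79 and 0.52, and of these C1qb passed (adjusted permutation p = 0.027).

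The genes whose group-centred pattern was most like that of a member were found among 7764 other genes tested, by the highest Pearson's r over the 14 arrays. They were picked for that value, which is a description with no test. For Hc these were Oat (ornithine aminotransferase), Adcy7 (an adenylate cyclase) and Sort1 (sortilin), at r from 0.95 to 0.96. Sort1 also stood among those nearest to Serping1 (0.96), with Fxyd1 (phospholemman, 0.97) and the extracellular matrix gene Olfml3 (0.96). For C1qa they were Il34, a ligand of the macrophage receptor CSF1R (0.91), Bcl2l1, which encodes the survival protein BCL-XL (0.88), and Ppp2r2a (0.88). Il34 was again near C1qc (0.89), behind Tm2d3 (0.90) and H6pd (0.89). C1qb was nearest to Gtf2f1 (0.91), Scamp3 (0.90) and the glutathione peroxidase gene Gpx1 (0.88). C3ar1 was nearest to Fuca1, a lysosomal fucosidase (0.95), Nedd8 (0.91) and Mmp12, the macrophage elastase (0.90), and Cfb to Tpbg (0.90), Slc12a7 (0.89) and Mtmr7 (0.86).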

How the data were processed

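The deposited values are log2 probeset levels that the authors made with GCRMA, per the submitters' processing notes, which corrects background by probe sequence, normalises between arrays and summarises probes. The sources used here give no version. Of all values 43.9% lay under 4, near the background floor. For arrays their number, 14, limits the precision.

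With limma 3.58.1 (R 4.3.3), group was the single term of a linear fit to probesets that were not controls and lay above 4 in at least 7 arrays. Tests were two-sided, with Benjamini-Hochberg adjustment over all 12701 tested probesets. Single genes were also compared by the exact permutation test over 3432 splits. Correlations used 100000 random orders, or all orders for up to 7 arrays. A gene was represented by its brightest probeset. Of 20380 probesets with 1 gene, 20351 had an ID in the RefSeq table of GRCm38.p6. The model and tests were tested on simulated data.

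Members, lists and tests were chosen with earlier results of these data known. Named were all member probesets. From other complement lists the genes with an unadjusted p under 0.05 and the 2 brightest were named, and from marker lists the 2 with the smallest p and the brightest. The 3 genes most like each member were added, as was Epas1. C1ra, C1s1, C8a, C8b, C8g, C9, C5ar1, Cr2, Itgam, Vsig4, C2 and Cfi were named after their values were seen. So were the genes at background, Alb, Apoa1, Apoa2, Cyp2e1, Eif2s3y, Chia1, Etv5, Sftpb, Sftpc and Sftpd. The correlations with marker lists were also added then. The lists of endothelial, club, ciliated, neutrophil, T and NK, and B cell markers had median differences of -0.64, -1.54, -2.70, 0.24, -0.47 and 0.32, with 0 of their genes past the threshold. Replicate numbers of the groups did not pair the arrays: same-numbered deviations correlated at -0.23 to 0.22, and 2 of 7 were above 0.1.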

Additional observations from a re-analysis of the deposited data

Results flagged for a closer look

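Serping1 in deficient 3, at 8.18, stood apart from the other 6 deficient arrays, which lay between 10.03 and 11.01. Its distance to the next value was 0.652 of the group's range, beyond Dixon's critical value at the 95% level for 7 arrays. It was 1 of 20 groups checked, and chance alone gives about 1 in 20.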

How the results depend on the processing

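Of 260 alternative values for the 9 tested member probesets, 3 changed sign. C1qc ran from -0.38 to 0.00033 without 1 array at a time, the latter without deficient 1, and was, without deficient 1 and 5 (chosen after seeing the data), 0.19, where the dimmest C1qb probeset was 0.0085. With array weights 2 members passed, Hc (-0.77, adjusted p = 0.0243) and Serping1 (-0.82, adjusted p = 0.0485), when 1900 probesets passed in all. Their adjusted p ran from 0.0243 to 0.989 and from 0.0485 to 0.989 over the alternatives. In every other limma fit, those without 1 array included, 0 members passed. The count of all probesets passing was 5, and 0 without the filter, 9 with trend and robust variances, 20 with Y-linked signal as a covariate, 11 at a threshold of 0.10, 32 without deficient 3 and 6, 289 without deficient 1 and 5 and 0 with leading numbers as random blocks. With the replicate block, although the numbers do not pair the arrays, it was 2, and 0 members passed. Without 1 array at a time it ran from 0 to 85. The complement median of -0.45 kept its sign, from -0.57 to -0.33 without 1 array at a time. It was -0.16 without the filter, which added 19 genes at or near background in most arrays. Of the 9 member pairs that passed, the number passing was 3 without the 2 farthest arrays, 5 without deficient 3 and 6, 3 within deficient arrays, 0 within controls, and 0 over the leading-number averages. Fewer arrays enter these. Cfb with Serping1 changed sign within controls (0.18). Causes were not tested.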
